A study of Mus musculus with 24 samples.

Results

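The messenger RNAs of 10 genes of the NF-κB inflammatory response were followed in bone-marrow-derived dendritic cells: the cytokines Il1a, Il1b, Tnf, Il6, Il12b, Il23a and Il10, the interleukin-1 receptor antagonist Il1rn, and the feedback inhibitors Nfkbia and Tnfaip3. The genes were taken by symbol from the authors' annotation of 55487 gene identifiers, and each symbol matched 1 identifier. Of the 10 genes, 8 passed the filter on low counts that kept 14535 genes for testing. Il23a and Il10 did not, and are given as counts only.

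NF-κB is a family of transcription factors held in the cytoplasm by IκB proteins until a receptor for microbial products, for interleukin-1 or for tumour necrosis factor (TNF) starts the degradation of the inhibitor. The freed factor enters the nucleus and switches on cytokine genes together with genes that end the response. Among the latter, Nfkbia encodes IκBα, which recaptures NF-κB, and Tnfaip3 encodes A20, a ubiquitin-editing enzyme that dampens signalling upstream of the kinase. In dendritic cells the cytokines of this response recruit and instruct other immune cells, and Il1rn blocks the receptor that both interleukin-1 proteins share.

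Cells were grown from the marrow of male and female mice of 8 to 10 weeks in IMDM medium with 50 ng/mL of the growth factor GM-CSF, supplied as the supernatant of transfected J558 cells. All mice carried floxed Arpc4 alleles on both chromosomes (ARPC4 Flox/Flox). The control group, called WT in the labels, lacked the CD11c-Cre transgene (CD11c-Cre -/-), and the KO group carried 1 copy (CD11c-Cre +/-), whose recombinase removes the floxed part once a cell switches on CD11c, so that precursors without CD11c keep the gene. Arpc4 encodes a subunit of the Arp2/3 complex, which nucleates branched actin. Cultures were replated on days 4 and 7, cells in suspension were recovered, and more than 90% were CD11c+ by the protocol. RNA was taken on days 7, 8, 9 and 10 from 3 mice per genotype (63, 65 and 66 for WT; 64, 67 and 68 for KO), which gave 8 groups of 3 and 24 libraries. The deposited counts of fragments per gene, from polyadenylated RNA sequenced as paired ends, were scaled to a common library size with TMM factors (CPM), and levels of different genes are compared only in the deposited TPM, which also divides by gene length. No stimulus was listed in the labels, so the levels are those of cells in culture.

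Totals ran from 19952047 to 31049798 counts per library. The targeted gene was lower in the direction of the labels, but not absent: on each of the 4 days every KO library had less Arpc4 than every WT library (group means 169, 228, 201 and 181 CPM against 192, 260.2, 228 and 219.9 CPM on days 7 to 10), with log2 fold changes of -0.19, -0.19, -0.18 and -0.28 (edgeR adjusted p 0.177, 0.69, 0.433 and 0.225). No day was called, so these gene counts do not by themselves show a loss of Arpc4 in the KO libraries. The dendritic cell markers were present, all 8 of 8, with Itgax, the gene of CD11c, at 750.4 to 1661 CPM. Macrophage markers (10 of 10, summed 2343 to 8170 CPM) and neutrophil markers (10 of 10, summed 1765 to 5984 CPM) were also present, and lists for B cells (summed 1.19 to 7.02 CPM), T and NK cells (0.319 to 10.1 CPM) and erythroid cells (0.0356 to 1.03 CPM) were near 0. Monocyte markers summed to 321 to 1164 CPM, and basophil and mast cell markers to 53.0 to 241 CPM. In each group 1 library had high Ddx3y, a Y-linked gene (56.5 to 83.9 CPM, against at most 0.136 CPM in the others). It carried mouse number 63 on each day in WT, but numbers 64, 68, 64 and 67 on days 7, 8, 9 and 10 in KO, so KO mouse numbers cannot be read as the same mouse on every day, and leaving out a KO number leaves out the libraries that carry it, not necessarily 1 animal. In bulk RNA, fewer cells of a type and less RNA per cell cannot be told apart.

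The main change over the culture was a rise of Tnf between day 7 and day 8, 8.53-fold in WT and 6.03-fold in KO, together with the inhibitor Nfkbia (1.83-fold and 1.77-fold), while the other inhibitor, Tnfaip3, fell. The interleukin-1 genes were lower on day 10 than on day 7. All cultures were replated on day 7, so in comparisons with day 7 time in culture and replating cannot be told apart. A gene is called here when its Benjamini-Hochberg adjusted p in edgeR's quasi-likelihood test, over the 14535 genes, was under 0.05. From day 7 to day 8 in WT, 4 of the 8 tested genes rose (Tnf, Il6, Nfkbia and Il1b) and 1 fell (Tnfaip3). Of all genes 43.4% were called in that comparison, 21.5% higher and 21.98% lower, so a count of 5 of 8 is not far from the background. Leaving out 1 WT mouse lowered the 5 to 2 or 3, and Tnf and Nfkbia were still among them. In KO the same interval gave 2 genes that rose (Tnf and Nfkbia) and 1 that fell (Tnfaip3), against 42.04% of all genes called, 21.1% higher and 20.9% lower. The median log2 fold change of the 8 was 0.60 in WT and 0.38 in KO, beside a median over all genes of -0.0038 and 0.0018. Marker sums moved in the same interval: macrophage markers summed to 5889.7 to 6771 CPM on day 7 and 3895 to 4311 CPM on day 8 in WT, and to 5182 to 8169.8 CPM and 2994 to 5173 CPM in KO. Sums of the 5 monocyte markers overlapped between the days, at 481 to 705 CPM and 469 to 496 CPM in WT and 544 to 1164 CPM and 350.2 to 850.4 CPM in KO, but the list did not move as one. In WT, Vcan had 6.32 to 9.67 CPM on day 7 and 95.4 to 107 CPM on day 8, and Ccr2, F13a1 and Ly6c2 were lower on day 8 without overlap (means of 368 and 189, 101 and 75.6, and 91.8 and 58.9 CPM). In KO, Vcan had 14.8 to 59.0 CPM and 104 to 256 CPM. Their part in the rise of Tnf was not tested.

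From day 8 to day 9, 3 of the 8 genes fell in WT (Il1b, Nfkbia and Tnfaip3), with 5.40% of all genes called, and 2 fell in KO (Nfkbia and Tnfaip3), with 2.33% called. With fewer WT mice fewer genes of any kind were called: without mouse 66, 17 of all genes and none of the 8, and without mouse 65, 38 of all genes and of the 8 only Nfkbia, in place of 785. The log2 fold changes without mouse 66 were -0.70 for Nfkbia, -1.24 for Il1b and -0.52 for Tnfaip3. In KO, 0 of the 8 were called without number 68, when 20 of all genes were, and 0 when only the libraries of those groups entered the fit, which called 0 of 13486 genes. In WT, macrophage sums were lower on day 9 than on day 8 without overlap (2603 to 2947 against 3895 to 4311 CPM). Neutrophil sums (3277 to 3668 against 1996 to 2666 CPM) and dendritic cell sums (3954 to 4242 against 2676 to 3172 CPM) were higher. Csf3r, Retnlg, Flt3 and Ccr7 of those lists had lower WT means on day 9. In KO all of these sums overlapped between the days. The part of cell make-up in the falls was not tested. From day 9 to day 10 the 1 gene called in WT was Tnf, which fell (3.60% of all genes called), and it was not called without any 1 of the 3 WT mice. In KO, 0 of 8 genes were called from day 9 to day 10 by edgeR, with 0.0963% of all genes called. An unadjusted p under 0.05 was reached by 5 of the 8 and by 1738 of all genes, and the DESeq2 Wald test called 1 of the 8, Tnfaip3, and 193 of all genes. Without the libraries numbered 67, 3 were called lower (Il1a, Il1rn and Tnfaip3), in a fit that called 2090 of 14674 genes in place of 14 of 14535.

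Between day 7 and day 10, 5 of the 8 genes were called in WT, 1 higher (Tnf) and 4 lower (Il1a, Il1b, Il1rn and Tnfaip3). Of all genes 36.99% were called, 18.9% higher and 18.1% lower. In KO 4 were called, 1 higher (Tnf) and 3 lower (Il1a, Il1b and Tnfaip3), against 36.8% of all genes, 19.7% higher and 17.1% lower. The median log2 fold change of the 8 was -0.89 in WT and -0.57 in KO, with all genes at -0.015 and 0.0033. On the TPM scale all genes shifted upwards, by a median log2 of 0.21 in WT and 0.25 in KO from day 7 to day 10 and of 0.17 in both from day 7 to day 8, and 84.4% and 85.9% of calls from day 7 to day 10 were then higher, in place of 51.1% and 53.6%. The directions of the called genes were the same on that scale, although 4 calls were lost: the Tnfaip3 step from day 7 to day 8, which shrank to -0.04 in WT and to less than 0.005 in size in KO, Il1b from day 7 to day 10 in WT (-0.50, limma adjusted p 0.183) and Tnf from day 9 to day 10 in WT (-0.84, adjusted p 0.0722).

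The genotype difference of these time changes was tested as an interaction. For day 10 against day 7, 0 of the 8 genes were called and 0 had an unadjusted p under 0.05, with 0.0619% of all genes called by edgeR and 0 of the 8 by the DESeq2 Wald test. The 3 steps between neighbouring days also gave 0 of 8 each, with 0 at an unadjusted p under 0.05, against 0.0275% of all genes for day 8 against 7, 0% for day 9 against 8 and 0% for day 10 against 9 (edgeR, with 171 and 177 of all genes at an unadjusted p under 0.05, and no DESeq2 test run). A gene called in 1 genotype and not in the other was therefore not shown to differ between them.

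**Figure D1:**
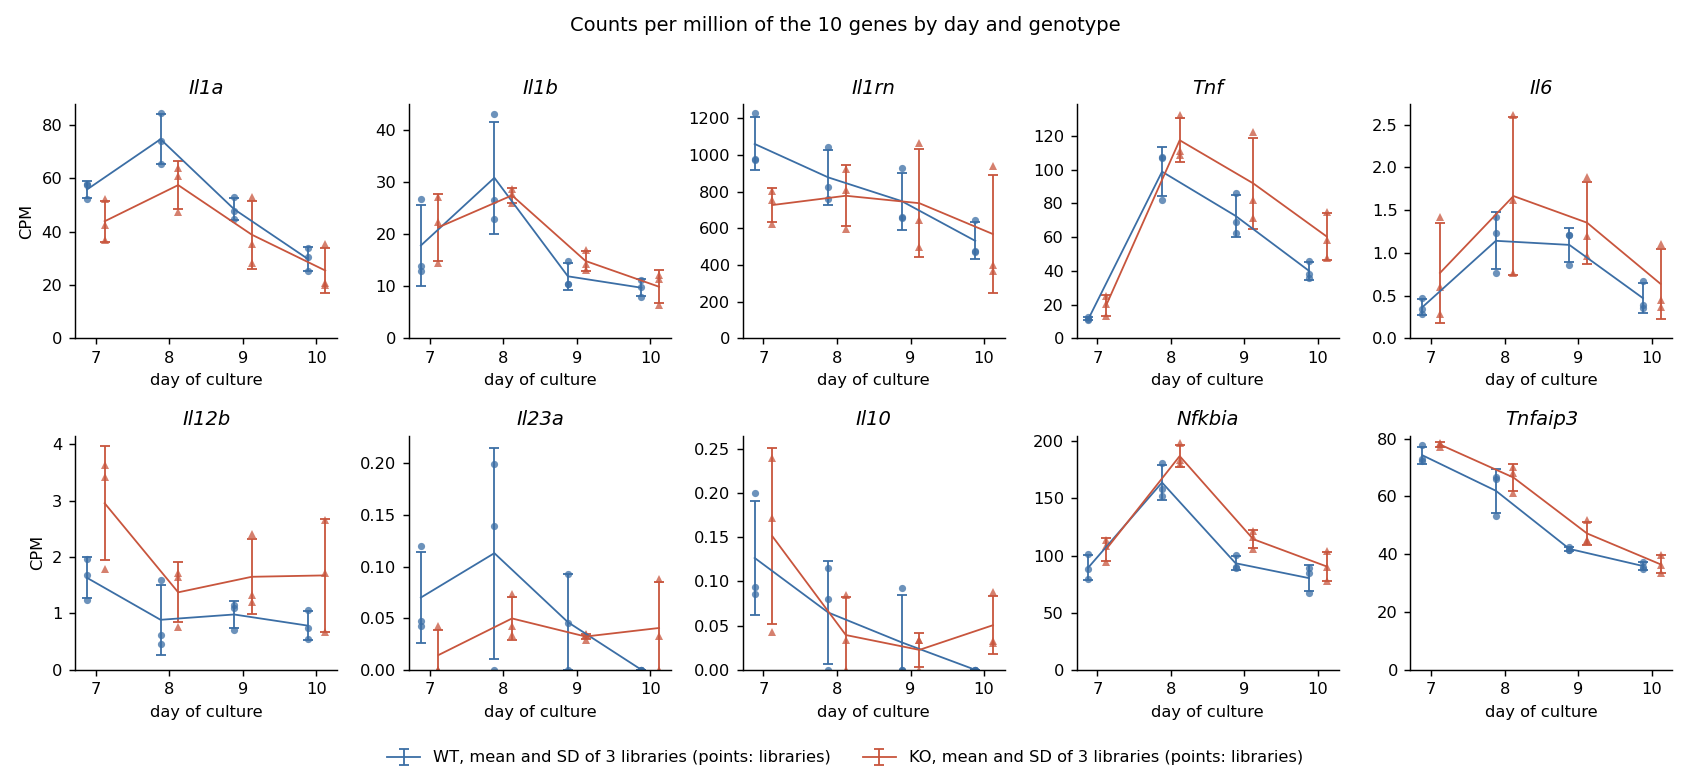
CPM (vertical axes, linear and starting at 0, scaled per gene) of the 10 genes on days 7 to 10 (horizontal axes). Points are libraries (circles WT, triangles KO), lines join the means of 3 libraries, and bars are SD, clipped at 0. Tnf and Nfkbia peaked on day 8 in both genotypes, Tnfaip3 was lower on each later day, and Il23a and Il10 stayed under 0.3 CPM.

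Genotype was compared within each day. By edgeR, 0 of the 8 genes were called between KO and WT on days 7, 8, 9 and 10, where 1.45%, 0.00688%, 0.00688% and 0.0138% of all genes were called. In the 32 tests of these genes over the 4 days, 5 had an unadjusted p under 0.05: Tnf on days 7 and 10, Nfkbia and Tnfaip3 on day 9, and Il12b on day 10. Over all 14535 genes 2280, 859, 1185 and 1061 reached that on days 7 to 10. The DESeq2 Wald test called 1 of 8 on day 7, Tnf, and 0 on the other days, with 511 genes called in all on day 7 and 17, 84 and 43 on days 8 to 10. The groups did not overlap for 3 of 8 genes on day 7 (Il1a, Il1rn and Tnf), 2 on day 8 (Il1a and Tnf), 3 on day 9 (Il12b, Nfkbia and Tnfaip3) and 1 on day 10 (Tnf). Over all genes 26.2%, 9.39%, 14.1% and 10.4% of genes did not overlap on those days. Some marker sums also stood apart between genotypes on day 9. Basophil and mast cell markers summed to 147 to 182 CPM in KO and 98.5 to 123 CPM in WT. Plasmacytoid dendritic cell markers, mostly Bst2, summed to 144 to 156 CPM and 121 to 133 CPM. Dendritic cell, macrophage, neutrophil and monocyte sums overlapped on that day. Their part in the genotype differences was not tested.

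Signs were counted over the 4 days. Tnf, Il6, Il12b, Nfkbia and Tnfaip3 had a positive log2 fold change, higher in KO, on all 4 days, and Il1a a negative one on all 4. Il1b was positive on 3 days, and Il1rn on 1. The sign turned in some alternatives for Il6 (-0.01 on day 9 without number 67 and -0.19 on day 10 without number 64) and Tnfaip3 (-0.03 on day 8 and -0.06 on day 10 without the libraries with high Ddx3y). The 4 days share mice, so they are not independent repeats. The median log2 fold change of the 8 genes was 0.25, 0.15, 0.30 and 0.14 on days 7 to 10, with all genes at -0.014, -0.0029, 0.00035 and 0.0024.

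**Figure D2:**
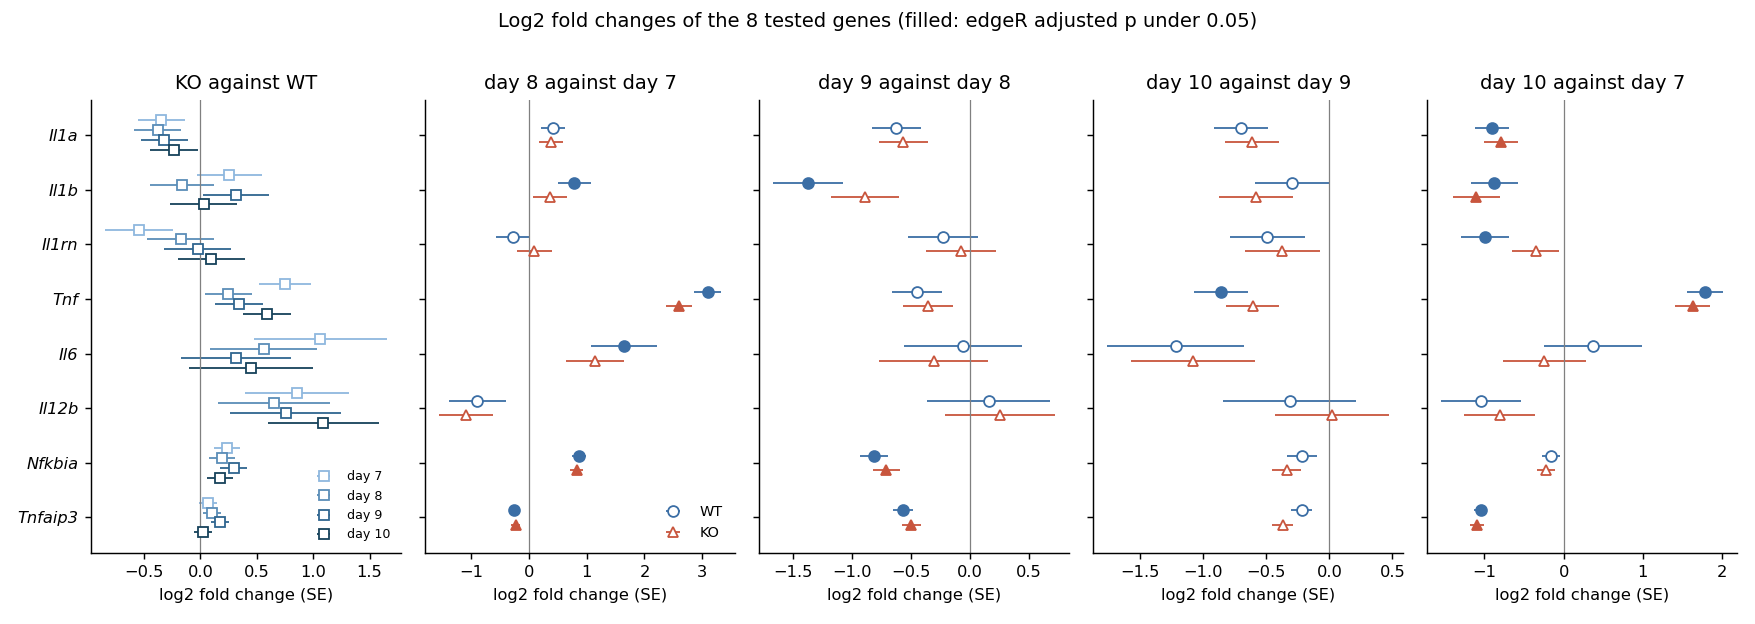
Log2 fold changes (horizontal axes, bars are SE) of the 8 tested genes for KO against WT by day and for 4 pairs of days in WT (circles) and KO (triangles). Filled symbols mark an edgeR adjusted p under 0.05. No symbol of the KO against WT panel is filled, and Tnf from day 7 to day 8 is the largest change, at 3.09 in WT and 2.59 in KO.

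Tnf (ENSMUSG00000024401.14, chromosome 17, 35199381 to 35202007, reverse strand, GRCm38, GENCODE M21, protein-coding) encodes the cytokine TNF, a trimer that activates endothelium and leukocytes. In WT it stood at 10.9, 11.1 and 12.7 CPM on day 7 and at 107, 81.9 and 107 CPM on day 8. The lowest WT library of day 8 lay far above the highest of day 7. Day 9 had 86.3, 62.1 and 69.2 CPM, and day 10 had 35.7, 45.7 and 38.3 CPM. Thus each WT library of day 10 stood below each of day 9 and above each of day 7. The log2 fold change from day 7 to day 8 was 3.09 (SE 0.24, edgeR adjusted p 4.56e-09), from day 9 to day 10 it was -0.86 (SE 0.21, adjusted p 0.0323), and from day 7 to day 10 it was 1.79 (SE 0.23, adjusted p 7.39e-06). The step from day 8 to day 9 was -0.45 (SE 0.21, adjusted p 0.222), with overlapping groups.

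In KO, Tnf stood at 13.1, 25.2 and 20.1 CPM on day 7, at 109, 132 and 111 CPM on day 8, at 81.8, 122 and 71.2 CPM on day 9 and at 74.9, 58.5 and 47.5 CPM on day 10. The order of days was that of WT. The rise from day 7 to day 8 was 2.59 on the log2 scale (SE 0.23, edgeR adjusted p 3.13e-08), and day 10 stayed above day 7 by 1.63 (SE 0.22, adjusted p 1.44e-05). Both rises kept their call in all 16 alternative analyses, as did their WT counterparts.

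Set against WT of the same day, KO libraries of Tnf were all higher on days 7, 8 and 10, and on day 9 the ranges overlapped. The log2 fold changes on days 7 to 10 were 0.75 (SE 0.23), 0.25 (SE 0.21), 0.34 (SE 0.21) and 0.59 (SE 0.21), with edgeR adjusted p of 0.11, 0.934, 0.748 and 0.462. The 95% intervals were 0.26 to 1.23, -0.19 to 0.69, -0.10 to 0.78 and 0.15 to 1.04. On day 7 the call depended on the analysis: the adjusted p was 0.0268 in the DESeq2 Wald test, 0.0201 without a filter on low counts and 0.0254 without number 64, and over all alternatives it ran from 0.0201 to 0.326. Without number 67 the day 9 value was 0.08.

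The region before the start of each gene that rose from day 7 to day 8 in WT is shown because these 4 genes share that step. Over the later days they differed, with Tnf above and Il1b below its day 7 level on day 10. Sequences are the 250 bases before the RefSeq start (GRCm38.p6), written 5′ to 3′ on the gene's strand, and capitals mark each match to the κB consensus, the DNA element that NF-κB binds, on either strand.
Tnf, chr17:35202008-35202257, reverse strand: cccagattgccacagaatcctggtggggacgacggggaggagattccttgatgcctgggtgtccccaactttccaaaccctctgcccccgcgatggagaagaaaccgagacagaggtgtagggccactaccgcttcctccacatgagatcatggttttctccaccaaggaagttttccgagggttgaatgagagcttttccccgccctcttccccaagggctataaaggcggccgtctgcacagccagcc
Il1b, chr2:129371140-129371389, reverse strand: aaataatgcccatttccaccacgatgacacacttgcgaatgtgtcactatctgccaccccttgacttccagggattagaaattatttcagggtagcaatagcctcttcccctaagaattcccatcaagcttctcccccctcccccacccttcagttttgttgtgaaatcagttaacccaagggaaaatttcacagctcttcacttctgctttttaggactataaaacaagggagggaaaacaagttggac
Il6, chr5:30012864-30013113, forward strand: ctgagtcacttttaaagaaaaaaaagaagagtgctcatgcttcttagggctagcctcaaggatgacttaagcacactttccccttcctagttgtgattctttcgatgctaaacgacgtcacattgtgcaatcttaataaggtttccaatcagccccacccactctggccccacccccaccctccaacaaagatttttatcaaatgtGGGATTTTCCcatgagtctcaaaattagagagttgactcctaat
Nfkbia, chr12:55492648-55492897, reverse strand: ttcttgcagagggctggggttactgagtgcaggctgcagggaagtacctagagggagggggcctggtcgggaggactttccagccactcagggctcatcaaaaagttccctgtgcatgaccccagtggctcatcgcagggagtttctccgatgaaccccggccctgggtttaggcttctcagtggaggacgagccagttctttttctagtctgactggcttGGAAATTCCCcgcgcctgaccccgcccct
Nfkbia and Il6 each held 1 match, 29 and 44 bases before the start, and Tnf and Il1b held none in this window. The motif TATAAA, read on the gene's strand, lay 29 bases before the start of Tnf and 31 before that of Il1b. TGANTCA, an AP-1 type motif read on both strands, lay 249 bases before the start of Il6. Matches of the 3 motifs did not overlap in these 4 windows. Of 32851 promoter windows of 250 bases in the RefSeq table, 7.251% held a κB match, 7.592% TATAAA and 6.749% TGANTCA. RefSeq windows were found for 8 of the 10 genes, all but Il10 and Il23a. There were 11 such windows, and 1 per gene is reported here. The windows reported for Il1a, Il1rn and Il12b held no κB match.

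Tnfaip3, the gene that fell, held 2 κB matches, 125 and 12 bases before its RefSeq start, which lies inside the gene as GENCODE M21 draws it. Each is shown with up to 10 bases on either side, capitals again marking the match, for comparison with Nfkbia.
Tnfaip3, chr10:19015516-19015545, reverse strand: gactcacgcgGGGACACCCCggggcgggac
Tnfaip3, chr10:19015411-19015432, reverse strand: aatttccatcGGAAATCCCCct
A match shows only that these letters are present, and no binding was measured.

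Nfkbia (ENSMUSG00000021025.8, chromosome 12, 55489410 to 55492647, reverse strand, GRCm38), the gene of IκBα, followed the day 8 peak of Tnf. WT libraries held 88.4, 79.4 and 101 CPM on day 7, 159, 152 and 181 CPM on day 8, 101, 89.9 and 89.5 CPM on day 9 and 84.3, 67.2 and 89.1 CPM on day 10. All day 8 libraries stood above all libraries of the other days. It rose by 0.87 on the log2 scale from day 7 to day 8 (SE 0.12, edgeR adjusted p 5.45e-06) and changed by -0.81 from day 8 to day 9 (SE 0.12, adjusted p 0.000707, and 0.0532 without mouse 66). Day 10 and day 7 differed by -0.16 (SE 0.12, adjusted p 0.297), and by 0.12 on the TPM scale.

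KO libraries of Nfkbia held 94.2, 114 and 109 CPM on day 7, 179.8, 183 and 198 CPM on day 8, 116, 121 and 106 CPM on day 9 and 104, 77.8 and 89.9 CPM on day 10. The day 8 peak again stood clear of every other day. The steps were 0.83 up to day 8 (SE 0.12, edgeR adjusted p 1.03e-05) and -0.71 down to day 9 (SE 0.12, adjusted p 0.00305, and 0.1 without number 68). Against WT the log2 fold changes were 0.23 (SE 0.12), 0.19 (SE 0.11), 0.29 (SE 0.12) and 0.17 (SE 0.12), with no overlap on day 9 alone, where adjusted p was 0.461.

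Tnfaip3 (ENSMUSG00000019850.11, chromosome 10, 19000910 to 19015657, reverse strand, GRCm38), the gene of A20, was lower on each later day and showed no day 8 peak. In WT it stood at 72.2, 72.9 and 77.7 CPM on day 7, at 53.1, 66.1 and 66.7 CPM on day 8, at 41.6, 41.3 and 42.6 CPM on day 9 and at 34.8, 35.6 and 37.4 CPM on day 10. No 2 neighbouring days overlapped. The log2 fold changes of the steps were -0.26 (SE 0.08, edgeR adjusted p 0.0138), -0.57 (SE 0.08, adjusted p 0.000873) and -0.22 (SE 0.08, adjusted p 0.161), and -1.05 over the whole interval (SE 0.08, adjusted p 3.03e-08). The first step lost its call in 4 of 16 alternatives, among them those without mouse 63 (-0.17) or 66 (-0.27). On the TPM scale it shrank to -0.04 (limma adjusted p 0.704). The second step lost its call without mouse 65 or 66.

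In KO, Tnfaip3 stood at 78.4, 77.1 and 78.3 CPM on day 7, at 68.0, 61.3 and 70.2 CPM on day 8, at 51.8, 45.0 and 44.7 CPM on day 9 and at 36.2, 39.7 and 33.6 CPM on day 10. Again no neighbouring days overlapped. It fell by 0.23 from day 7 to day 8 on the log2 scale (SE 0.08, edgeR adjusted p 0.0297, lost in 8 of 16 alternatives, and -0.17 without number 67) and by 0.50 from day 8 to day 9 (SE 0.08, adjusted p 0.0034). On the TPM scale the step from day 7 to day 8 was -0.002 (limma adjusted p 0.988). Over the whole interval the change was -1.10 (SE 0.08, adjusted p 2.04e-08). The falls from day 7 to day 10 kept their call in all 16 alternatives in both genotypes. Between genotypes the differences in log2 CPM were 0.07, 0.10, 0.17 and 0.02 (each with SE 0.08), with 95% intervals reaching from -0.15 to 0.35 over the 4 days.

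Il1rn (ENSMUSG00000026981.15, chromosome 2, 24336853 to 24351494, forward strand, GRCm38), the receptor antagonist, had the highest group mean TPM of the 10 genes in each of the 8 groups, with means of 310.0 to 508 TPM. In WT it stood at 973, 1226 and 979.7 CPM on day 7, at 827, 1045 and 760.0 CPM on day 8, at 660.2, 927 and 656 CPM on day 9 and at 474, 647 and 472 CPM on day 10. Mouse 65 gave the highest WT value on each day. From day 7 to day 10 it fell in WT by 1.00 on the log2 scale (SE 0.30, edgeR adjusted p 0.0132), without overlap. The call was lost when any 1 WT mouse was left out (adjusted p 0.0953, 0.0564 and 0.0994), with values of -0.97, -1.04 and -0.97.

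KO libraries of Il1rn held 804, 623 and 752 CPM on day 7, 811, 598 and 923 CPM on day 8, 1067, 499 and 644 CPM on day 9 and 365, 938 and 402 CPM on day 10. The groups overlapped between all days, and the highest value of day 9 (number 64) and of day 10 (number 67) stood far above the other libraries of its group. The change from day 7 to day 10 was -0.35 (SE 0.30, edgeR adjusted p 0.38), and -1.03 (adjusted p 0.00139) without the libraries numbered 67 on all 4 days. The genotype difference of this change was 0.64 (SE 0.42, 95% interval -0.24 to 1.52, adjusted p 0.873), and -0.04 without number 67. The call of Il1rn in KO therefore depended on whether the libraries of that number were included. Against WT the log2 fold change on day 7 was -0.54 (SE 0.30, 95% interval -1.17 to 0.08, adjusted p 0.385), without overlap, and on days 8 to 10 it was -0.17, -0.02 and 0.10. Without the libraries with high Ddx3y these 3 values were -0.35, -0.46 and -0.54, none of them called.

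Il1a (ENSMUSG00000027399.1, chromosome 2, 129299610 to 129309972, reverse strand, GRCm38) encodes interleukin-1α, a cytokine that is active without cleavage and acts as an alarm signal when cells die. WT libraries held 57.4, 52.4 and 57.8 CPM on day 7, 65.6, 74.2 and 84.4 CPM on day 8, 44.8, 53.0 and 47.7 CPM on day 9 and 30.6, 33.8 and 25.1 CPM on day 10. No neighbouring WT days overlapped. Day 10 lay below day 7 by 0.90 on the log2 scale (SE 0.21, edgeR adjusted p 0.00226, and 0.0597 without mouse 66). The single steps of 0.42, -0.62 and -0.70 (SE 0.21 each) were not called, at adjusted p of 0.111, 0.082 and 0.0743, and were called in 5, 7 and 9 of 16 alternatives. With the WT mouse as a replicate block the last 2 steps were called, day 9 against 8 at -0.62 (limma adjusted p 0.0404) and day 10 against 9 at -0.71 (adjusted p 0.0327).

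KO libraries of Il1a held 52.2, 36.9 and 42.6 CPM on day 7, 64.1, 47.4 and 61.1 CPM on day 8, 53.0, 28.3 and 35.4 CPM on day 9 and 20.9, 35.3 and 20.2 CPM on day 10. The SD of log2 deviations from group means was 0.36 in KO and 0.16 in WT. Day 10 lay below day 7 by 0.79 (SE 0.21, edgeR adjusted p 0.00639), a call lost without number 64 (-0.52, adjusted p 0.0865) or 68 (-0.67, adjusted p 0.084). Without number 67 the value was -1.22. Set against WT, KO differed by -0.35, -0.38, -0.32 and -0.23 on the log2 scale (SE 0.21 each), without overlap on days 7 and 8, at adjusted p of 0.44, 0.864, 0.781 and 0.874. Gm14023 lies on the opposite strand at this locus and had 229 counts in all 24 libraries together, and the strand setting of the counting is not given in the sources used here.

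Il1b (ENSMUSG00000027398.13, chromosome 2, 129364570 to 129371139, reverse strand, GRCm38) encodes interleukin-1β, made as a precursor that caspase-1 cleaves. In WT it stood at 13.8, 12.9 and 26.7 CPM on day 7, at 22.8, 26.5 and 43.0 CPM on day 8, at 10.3, 10.4 and 14.9 CPM on day 9 and at 11.2, 8.00 and 9.83 CPM on day 10. Mouse 66 was highest on days 7, 8 and 9. It rose by 0.79 from day 7 to day 8 (SE 0.29, edgeR adjusted p 0.0322), with overlapping groups, then changed by -1.37 to day 9 (SE 0.30, adjusted p 0.0124) and by -0.87 from day 7 to day 10 (SE 0.30, adjusted p 0.0253). These calls were lost without single mice: the first without 63 or 65 of WT or 68 of KO, the second without any 1 WT mouse, and the third without 65 or 66, where it stood at -0.47 without mouse 66. With the labelled mouse as a replicate block the day 10 change was -0.80 (adjusted p 0.0567).

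In KO, Il1b stood at 14.4, 27.05 and 22.4 CPM on day 7, at 27.7, 28.6 and 25.9 CPM on day 8, at 16.99, 14.3 and 13.2 CPM on day 9 and at 12.05, 6.29 and 11.3 CPM on day 10. Day 10 lay below day 7 without overlap, by 1.10 on the log2 scale (SE 0.29, edgeR adjusted p 0.00599, and 0.12 without number 67, where the value was -0.66). The steps to day 8 (0.37, SE 0.29) and to day 9 (-0.89, SE 0.29) had adjusted p of 0.326 and 0.0948. Against WT the log2 fold changes were 0.26, -0.17, 0.32 and 0.03, with SE 0.28 to 0.30 and overlapping groups on every day. Il1bos, an antisense transcript at this locus, had 68 counts over all libraries.

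The antagonist was set against its 2 rivals per transcript length, as the TPM of Il1rn divided by the summed TPM of Il1a and Il1b. In WT the ratio was 4.84, 6.65 and 4.09 on day 7, 3.30, 3.67 and 2.10 on day 8, 4.25, 5.19 and 3.71 on day 9 and 4.00, 5.48 and 4.77 on day 10. Every WT library of day 8 lay below every WT library of the other days. KO libraries stood at 4.27, 3.42 and 4.08 on day 7, 3.12, 2.77 and 3.75 on day 8, 5.39, 4.13 and 4.68 on day 9 and 3.91, 8.00 and 4.50 on day 10. Day 8 was again the lowest mean (3.21 ± 0.49, SD, n = 3), although its range overlapped with day 7, and the value of 8.00 came from number 67 on day 10. The antagonist's transcript thus exceeded the summed agonists in all 24 libraries, and the genotypes overlapped on each day. No test was run on the ratio.

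**Figure D3:**
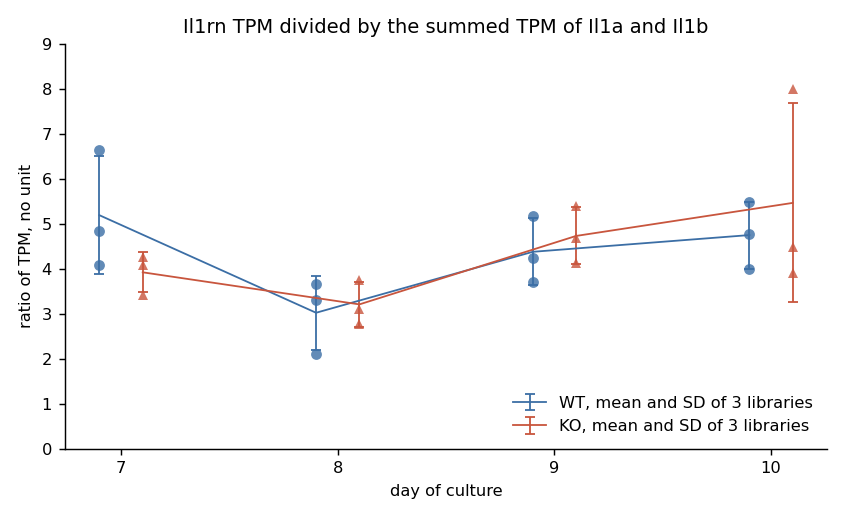
Ratio of Il1rn TPM to the summed TPM of Il1a and Il1b (vertical axis, no unit) by day of culture. Points are libraries (circles WT, triangles KO), and lines and bars are means and SD of 3 libraries. The lowest mean in each genotype is that of day 8, 3.02 in WT and 3.21 in KO, and 1 KO library of day 10 stands at 8.00.

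Il6 (ENSMUSG00000025746.11, chromosome 5, 30013114 to 30019981, forward strand, GRCm38), the gene of a cytokine of the acute phase response, was near the detection limit. WT libraries had 7, 10 and 8 counts on day 7, 22, 37 and 31 on day 8, 25, 26 and 19 on day 9 and 11, 17 and 10 on day 10. Days 8 and 9 stood above days 7 and 10 in WT without overlap. The rise to day 8 was 1.64 on the log2 scale (SE 0.57, edgeR adjusted p 0.0236), and was not called without any 1 WT mouse. In KO the counts were 7, 33 and 14 on day 7, 44, 78 and 18 on day 8, 35, 65 and 29 on day 9 and 37, 11 and 15 on day 10. Spread within KO groups was wide, and the step to day 8 was 1.14 (SE 0.50, adjusted p 0.0722). Genotype differences were 1.06, 0.56, 0.31 and 0.45, with SE from 0.47 to 0.59, and the groups overlapped on all days. Without number 67 the values on days 7 to 9 were 0.29, 0.09 and -0.01, and without number 64 that of day 10 was -0.19.

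Il12b (ENSMUSG00000004296.14, chromosome 11, 44400063 to 44414033, forward strand, GRCm38) encodes p40, the chain shared by interleukin-12 and interleukin-23, which direct T cell responses. WT libraries had 31, 36 and 46 counts on day 7, 13, 16 and 40 on day 8, 24, 15 and 24 on day 9 and 21, 14 and 30 on day 10. KO libraries had 45, 85 and 80 counts on day 7, 45, 51 and 18 on day 8, 39, 83 and 36 on day 9 and 89, 20 and 58 on day 10. In CPM the KO range lay above WT on day 9 and overlapped with it on the other days. The log2 fold changes between genotypes were 0.85 (SE 0.46), 0.66 (SE 0.50), 0.76 (SE 0.49) and 1.09 (SE 0.49), with edgeR adjusted p of 0.374, 0.933, 0.773 and 0.632. From day 7 to day 10 the values were -1.04 in WT (SE 0.50, adjusted p 0.109) and -0.81 in KO (SE 0.45, adjusted p 0.169), and no step was called. Without number 64 the KO value was -1.56 (adjusted p 0.0406), and without number 67 it was -0.27. The KO step from day 7 to day 8 (-1.09, SE 0.46, adjusted p 0.0643) was called in 3 of 15 alternatives, and day 10 against 7 in WT in 2.

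Il23a and Il10 had at most 5 and 6 counts in any library. Il23a (ENSMUSG00000025383.2, chromosome 10, 128296139 to 128298752, reverse strand, GRCm38), the p19 chain that pairs with p40 in interleukin-23, had 3, 1 and 1 counts in WT on day 7, 4, 0 and 5 on day 8, 0, 2 and 1 on day 9 and 0 in all 3 libraries on day 10. In KO it had 0, 1 and 0 counts on day 7, 2, 1 and 1 on day 8, 1 in each library on day 9 and 0, 1 and 3 on day 10. Il10 (ENSMUSG00000016529.5, chromosome 1, 131019845 to 131024974, forward strand, GRCm38), an anti-inflammatory cytokine, had 5, 2 and 2 counts in WT on day 7, 0, 3 and 2 on day 8, 0, 2 and 0 on day 9 and 0 in all 3 on day 10. Its KO counts were 6, 1 and 4 on day 7, 0, 1 and 2 on day 8, 1, 0 and 1 on day 9 and 1, 1 and 3 on day 10. Neither gene was tested, and no fold change is given at these counts. Ranges did not overlap for Il10 between genotypes on day 10, nor for either gene between days 7 and 10 in WT. At these counts a few reads decide whether ranges overlap, so these gaps show no difference in level.

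The order of the 8 groups, sorted by their own means, summarises each gene. No share of overlapping neighbours over all genes was computed, so the overlaps only describe these genes. For Tnf the means ran from 11.6 ± 0.99 CPM (SD, n = 3) in WT on day 7 through 19.5 ± 6.1 CPM in KO on day 7 and 39.9 ± 5.2 CPM in WT on day 10 to 117 ± 13 CPM in KO on day 8. Of the 7 neighbouring pairs in that order, 3 overlapped: WT day 8 with KO day 9, KO day 9 with WT day 9, and WT day 9 with KO day 10. For Nfkbia the 2 day 8 groups headed the order, KO with 187 ± 9.75 CPM and WT with 164 ± 15.5 CPM (SD, n = 3 each), overlapped with each other and stood clear of the third, KO on day 9 with 114 ± 7.96 CPM. Tnfaip3 was ordered by day, and within each day KO stood above WT in the mean, from 77.9 ± 0.72 CPM in KO on day 7 to 35.9 ± 1.3 CPM in WT on day 10. For Il1b and Il1rn every neighbouring pair of groups overlapped, and for Il1a only WT on day 8, at 74.7 ± 9.4 CPM, stood apart from the next group.

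Libraries within KO groups departed from their means in a common direction for several genes. The KO library with high Ddx3y had the highest Il1rn of its group on all 4 days (804, 923, 1067 and 938 CPM on days 7 to 10), the highest Tnfaip3 on all 4 days, and the highest Il1a on days 7, 9 and 10. It had the lowest Il1b, the lowest Il6 and the lowest Il12b of its group on 3 of the 4 days each. The WT library with high Ddx3y, mouse 63, had the highest Il1rn, Il1a or Tnfaip3 on none of the days. The KO library in question also had the lowest summed dendritic cell markers of its group on all 4 days and the highest summed macrophage markers on days 8, 9 and 10. The dendritic list did not move as one: Itgax had its group maximum in that library on days 7, 9 and 10 (993, 1287 and 1610 CPM). The monocyte sum and the basophil and mast cell sum of that library were the lowest of the group on all 4 days, and its neutrophil sum on days 7, 9 and 10. In WT the dendritic sum was likewise lowest in mouse 63 on all 4 days, while its macrophage sum was highest on day 10 only. Mouse 63 also had the lowest basophil and mast cell sum on all 4 days and the lowest neutrophil sum on days 7, 8 and 10. The part of cell make-up or sex in these levels was not tested.

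**Figure D4:**
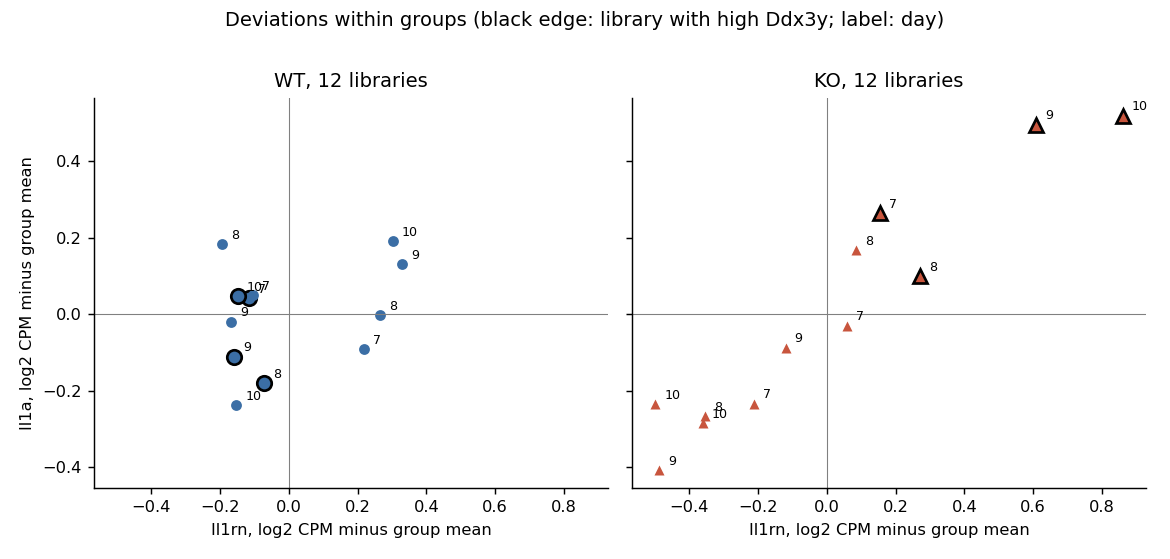
Deviation of each library from its group mean in log2 CPM, Il1rn on the horizontal axis and Il1a on the vertical axis, for WT (left, 12 libraries) and KO (right, 12 libraries). Numbers give the day and black edges mark the library with high Ddx3y in each group. In KO the 4 marked libraries lie in the upper right quadrant, above their group mean for both genes, and in WT they do not.

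When the 8 libraries with high Ddx3y were left out, which leaves 2 per group, 0 of the 8 genes were called between genotypes on each day and 0 in the interaction. Il1rn was then called lower on day 10 than on day 7 in KO as well (-0.84, edgeR adjusted p 0.0114). Tnf from day 9 to day 10 in WT was no longer called (-0.65, adjusted p 0.226). Tnfaip3 from day 7 to day 8 in WT also lost its call (-0.17, adjusted p 0.0802). Il1a gained a call in WT on each step between neighbouring days (0.53, -0.65 and -0.78, edgeR adjusted p 0.019, 0.0413 and 0.0487). In KO it gained calls on day 8 against 7 (0.50, adjusted p 0.0261) and day 9 against 8 (-0.81, adjusted p 0.0178). Il1b was called in KO on day 9 against 8 (-1.04, adjusted p 0.0482). Tnfaip3 was called there on day 10 against 9 (-0.37, adjusted p 0.0434). From day 7 to day 8 macrophage sums fell in both genotypes, while the means of Il1a and Il1b rose. Between day 7 and day 10 macrophage sums fell, as did the means of Il1a, Il1b, Il1rn and Tnfaip3. Macrophage sums were 5889.7 to 6771 CPM on day 7 and 2413 to 2499 CPM on day 10 in WT, and 5182 to 8169.8 CPM and 2343 to 3093 CPM in KO. Summed dendritic markers went the other way, with WT sums of 2156 to 2629.7 CPM on day 7 and 4545 to 6094 CPM on day 10, and KO sums of 2378 to 2866 CPM and 4299 to 6781 CPM. Neutrophil markers summed to 1765 to 3433 CPM on day 7 and 4060 to 5939 CPM on day 10 in WT, and overlapped between these days in KO. Of the 10 neutrophil markers, Csf3r and Retnlg had lower WT means on day 10 (48.3 against 111 CPM and 8.79 against 30.1 CPM) and the other 8 higher ones. Their part in the changes was not tested.

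The wider pathway was read from 6 lists chosen with earlier results of these data known. Between genotypes, 2 of the 95 tested genes of these lists were called, both on day 7, when 1.45% of all genes were called. Irak3, an inhibitory member of the interleukin-1 receptor-associated kinases, was higher in KO at 46.1 ± 4.1 against 35.1 ± 2.3 CPM (log2 fold change 0.39, SE 0.10, edgeR adjusted p 0.045). Ptx3, a secreted pattern recognition molecule, was lower at 10.2 ± 0.30 against 29.1 ± 5.1 CPM (-1.51, SE 0.18, adjusted p 0.000131; SD, n = 3 each). Ptx3 was also the 1 list gene called in the interaction of day 10 against day 7.

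The counts of the lists over time are read against the share of all genes called from day 7 to day 8, 21.5% higher and 21.98% lower in WT and 21.1% and 20.9% in KO. From day 7 to day 8, 15 of 27 other NF-κB target cytokines and effectors rose and 2 fell in WT (median log2 fold change 0.52), and 18 rose and 2 fell in KO (median 0.81), against all-gene medians of -0.0038 and 0.0018. Of 20 other feedback inhibitors 9 rose and 4 fell in WT, and 8 rose and 4 fell in KO. Among Toll-like receptor and interleukin-1 receptor adaptors, 1 of 14 was higher and 7 were lower in WT, and 1 was higher and 8 were lower in KO. For processing and release genes 7 of 13 rose and 3 fell in each genotype, for receptors and decoys 4 and 5 of 12 rose and 3 fell, and for subunits and kinases of NF-κB 3 of 9 rose and 1 fell in each. No difference between lists was tested.

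From day 7 to day 10 in WT, Nfkb1 and Nfkb2, the genes of the precursors p105 and p100, rose by 0.59 (SE 0.12) and 0.33 (SE 0.11), while Rela, the p65 subunit, changed by -0.21 (SE 0.08) and Ikbkg, the regulatory subunit of the kinase, by -0.36 (SE 0.11). Among the inhibitors Socs1, which blocks cytokine receptor kinases, went from 6.31 ± 0.31 to 41.6 ± 7.3 CPM (SD, n = 3 each; log2 fold change 2.72, SE 0.11), and Sigirr, a decoy-like receptor, rose by 0.82 (SE 0.30). Dusp1, a phosphatase of MAP kinases, went the other way, from 77.4 ± 9.9 to 17.1 ± 1.6 CPM (-2.18, SE 0.20), and so did Atf3, a repressor of cytokine genes (-1.37, SE 0.27). Il1r2, the decoy receptor of interleukin-1, rose from 8.74 ± 3.0 to 86.0 ± 6.6 CPM (3.30, SE 0.41), while Il1rn, which acts on the same pathway, was lower. Il12rb2, a receptor chain for interleukin-12, rose by 1.99 (SE 0.16).

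The same comparison gave lower values for Tnfrsf1b, the second TNF receptor (-0.62, SE 0.12), and Il10rb (-0.52, SE 0.16). Cd14, the co-receptor for lipopolysaccharide, went from 217 ± 39 to 42.2 ± 4.3 CPM (-2.36, SE 0.13). Irak2, a kinase of the same pathway, changed by -0.80 (SE 0.06) and Myd88, its adaptor, by 0.59 (SE 0.09). P2rx7, the ATP receptor that triggers interleukin-1β release, and the inflammasome sensor Nlrp3 were lower (-1.09, SE 0.17, and -0.40, SE 0.10), and Pycard, its adaptor, and Capn2, a calpain, were higher (0.26, SE 0.09, and 0.32, SE 0.08). The neutrophil chemokines Cxcl2 and Cxcl1 changed by -2.74 (SE 0.28) and -2.66 (SE 0.59), and Ccl22 and Ccl2 rose by 2.06 (SE 0.36) and 1.44 (SE 0.27). Cxcl1 was low on both days, at 3.53 ± 0.53 CPM on day 7 and 0.57 ± 0.43 CPM on day 10 (SD, n = 3 each). The edgeR adjusted p of these genes ran from 1.68e-12 to 0.0406. In KO, 3 of the 23 genes named for this comparison were not called, Nfkb2 (0.27, adjusted p 0.0681), Pycard (0.23, adjusted p 0.0677) and Nlrp3 (-0.16, adjusted p 0.19).

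For each of the 6 genes with an average log2 CPM above 1, the genes most alike in pattern were found by Pearson's r of log2 CPM over the 24 libraries, among 10618 candidates. The libraries share groups, mice and scaling, so r is a description. Tnf was most like Emilin2 (r = 0.99), Ddx39 (0.98) and Tarm1 (0.98), and Nfkbia most like Nadk (0.95) and Lpcat2 (0.93). Tnfaip3 was nearest to Slc16a10 (0.97), Ninj1 (0.96) and Rab20 (0.96), and Il1rn to Eaf1 (0.95), Asph (0.95) and Atp6v1h (0.94). Il1a was nearest to Nus1 (0.94), Sdcbp (0.93) and Dcun1d3 (0.92). For Il1b they were Adgre4 (0.90), Il1f9 (0.90), another interleukin-1 family gene, and Clec4e (0.88).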

How the data were processed

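Poly(A)-selected RNA of 24 libraries was sequenced as stranded paired ends, per the labels' protocols, which name 2 library kits without saying which library used which. The authors deposited whole-number counts per gene and TPM per gene. STAR 2.6.1, FastQC 0.11.9, DESeq2 1.22.2 and the build mm10 are named in the submitters' processing notes, with no role or order, and the counter and its strand setting are not given in the sources used here. Of 55487 identifiers, 55094 had the same version in GENCODE M21 (GRCm38), from which positions were taken.

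The count matrix went through edgeR 4.0.16 (R 4.3.3) with filterByExpr over the 8 groups, TMM factors, and 1 quasi-likelihood fit of all 24 libraries with 1 coefficient per group and 16 residual degrees of freedom. Both directions were tested in 13 comparisons, with p adjusted over the 14535 genes kept. A further 3 interactions between neighbouring days were added after values had been seen. Each SE is the absolute log2 fold change divided by the square root of F. Alternatives were DESeq2 size factors, the DESeq2 1.42.0 Wald test, no filter, at least 50 counts on average, the libraries of the compared groups only, limma-trend (limma 3.58.1) on log2(TPM + 1), Xist as a covariate, no libraries with Ddx3y above 10 CPM, each mouse number left out on all days, and a replicate block (limma voom). The script was tested on simulated counts.

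The mouse numbers pair libraries across days in the labels. Deviations of same-numbered libraries from group means correlated above 0.1 in 18 of 18 pairs in WT and in 7 of 18 in KO, so the block was run on the labelled numbers and, after seeing this, on WT numbers only. Libraries of 1 group differed by 7.66 to 138 times sampling noise (chi-square per degree of freedom), and counts are reads without molecular identifiers. The 10 genes and the lists were chosen with earlier results of these data known. From the lists, up to 2 genes per list and direction with the largest called change were named for KO against WT on day 7 and for day 10 against day 7 in WT, and 3 nearest genes for each gene with an average log2 CPM above 1 (prior count 2), of which 1 is not reported here.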

Additional observations from a re-analysis of the deposited data

How the results depend on the processing

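Of 23 called changes of the 8 genes over the 13 comparisons, 8 kept their call in every alternative: Tnf (day 8 against 7 and day 10 against 7), Nfkbia (day 8 against 7) and Tnfaip3 (day 10 against 7), in both genotypes. None of the 23 changed direction. Of the 81 changes not called, 17 were called in some alternative and 56 had the same sign in all. Counts called out of 8 that moved by over 1.5 times were as follows, and the cause was not tested. KO against WT on day 7 gave 1 in place of 0 with the DESeq2 Wald test and without a filter (Tnf each time). WT day 9 against 8 gave 5 in place of 3 in the fit of the compared groups only. WT day 10 against 9 gave 2 in place of 1 with the Wald test, without a filter, in the compared groups only, with the Xist covariate and with the replicate block on WT mice. KO day 8 against 7 gave 5 in place of 3 with Xist. KO day 9 against 8 gave 0 in place of 2 in the compared groups only and 4 without high-Ddx3y libraries. KO day 10 against 9 gave 1 in place of 0 with the Wald test and without those libraries. Smaller moves were 4 and 6 in place of 5 (WT day 8 against 7 and day 10 against 7), 4 in place of 3 (WT day 9 against 8, with the block on WT mice among others, which added Il1a), 2 and 4 in place of 3 (KO day 8 against 7), 3 in place of 2 (KO day 9 against 8) and 5 in place of 4 (KO day 10 against 7). With 1 mouse number left out the counts ran from 0 to 1 (KO against WT, day 7), 2 to 6 (WT, day 8 against 7), 0 to 4 (WT, day 9 against 8), 0 to 2 (WT, day 10 against 9), 2 to 5 (WT, day 10 against 7), 2 to 3, 0 to 2, 0 to 3 and 3 to 5 (the same 4 in KO), and stayed at 0 for KO against WT on days 8, 9 and 10 and for the interaction. The labelled replicate block (consensus correlation 0.00464) moved no count by over 1.5 times, giving 4 in place of 5 for WT day 10 against 7, where Il1b lost its call (-0.80, adjusted p 0.0567), and it changed no other call. On WT mice only the correlation was 0.195. Depth limits Il6, Il12b, Il23a and Il10, which had at most 89 counts in a library.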
